A study of Arabidopsis thaliana with 8 samples.

Results

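The plastid genome of Arabidopsis thaliana encodes the core of the light reactions, and 33 of its genes for photosystem II, photosystem I, the cytochrome b6f complex, ATP synthase and Rubisco are described here in leaf RNA. They were chosen by a rule on gene ID and symbol, which was set with earlier results of these data known. The rule takes plastid genes whose symbol begins with psa, psb, pet or atp, together with ycf3, ycf4, ccsA, cemA and rbcL. Each needed a probe set listed for a single gene. Of 37 genes that fit this description, 33 had such a probe set, 1 each; atpB and atpE share one, as do psbC and psbD. The 33 are part of 63 plastid genes, and of 16554 genes in all, that a probe set names alone, among 28583 probe sets.

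Leaf RNA was hybridised to 8 Affymetrix arrays of 1 colour. The label of 4 was wild type and that of the other 4 fbn5-1, a line that carries a T-DNA insertion named for FBN5 (AT5G09820), a plastid fibrillin linked to plastoquinone synthesis. All plants were of the Col-0 ecotype, were 3 weeks old, received no treatment and were grown on 0.5x MS medium with 1% sucrose under a cycle of 16 h light and 8 h dark, at 25 °C and a humidity of 60%. The mutant is represented by 1 insertion allele. The labels do not say whether the 4 replicates were separate plants or cultures, so p-values measure no more than the spread among these 8 samples, part of which may be technical.

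The comparison asks how the transcripts of the light reactions differ between the genotypes. In the thylakoid membrane, photosystem II takes electrons from water and passes them to plastoquinone, the cytochrome b6f complex passes them on towards photosystem I, and ATP synthase uses the proton gradient built on the way. Each complex is a mosaic of plastid-encoded and nuclear-encoded subunits. Most of the plastid genes are transcribed in clusters of several genes and then cut and edited, so that neighbours share a promoter but can differ in mature RNA.

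FBN5 itself had no lower signal with the fbn5-1 label. On the log2 scale it was at 3.54, 3.35, 3.43 and 5.15 on wild type arrays 1 to 4 and 4.71, 4.52, 4.76 and 4.58 on fbn5-1 arrays 1 to 4. The fbn5-1 mean was higher by 0.78 (SE 0.36), which missed the threshold (limma adjusted p = 0.173; exact permutation test, two-sided, p = 0.143), and it was 1.2 without wild type array 4 (SE 0.11, limma adjusted p = 0.000534). On which side of the insertion this probe set lies was not given. Arrays are therefore called by their label, and every direction below rests on the labels. The green tissue markers with a named probe set, RCA, PRK and SBPASE (3 of 16 listed), had log2 signals between 7.76 and 11.08 on all arrays. Of 8 listed markers of dividing cells, 3 had a named probe set. These 3, AUR1, AUR2 and TOPII, were all called higher with the fbn5-1 label, beside 8.22% of all tested probe sets. Their wild type means of 3.6, 3.1 and 3.2 were low, near the wild type array medians of 3.42 to 3.45. Their summed linear signal was 23.8 to 32.7 on the wild type arrays and 52.2 to 98.4 on the fbn5-1 arrays. SWEET11, the 1 of 8 vascular markers with a named probe set, was lower (difference -0.62, SE 0.08, limma adjusted p = 0.00274, and -0.56 with quantile normalization). The root marker PYK10 (1 of 13 listed) and the guard cell marker FMA (1 of 6) were not called. Their differences were 0.705 and -0.19 (limma adjusted p = 0.404 and 0.411), and PYK10 was at 6.84 on wild type array 4. The part of cell composition in the plastid results was not tested, and in bulk leaf RNA fewer cells of a type, fewer plastid genomes and less RNA per cell cannot be told apart.

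All 33 genes were bright. Their deposited log2 signals lay between 9.03 and 12.42, and the highest probe set of each array lay between 12.56 and 12.77. The mean signal of 32 of the 33 was above the 99th percentile of all probe sets (9.76), and psbM was just below it. Signals of different probe sets were not read as relative amounts of RNA, because each probe set has its own response. Whether signals this close to the top still follow RNA amount in proportion was not tested. Replicates were tight: the SD within a label was as low as 0.01 (psbF and psbZ on the wild type arrays), and the median SE of a difference was 0.04. The array-wide background was high, with 16.8% of 17147 tested probe sets called at a limma adjusted p under 0.05 (8.22% with a higher and 8.55% with a lower signal under the fbn5-1 label).

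As deposited, 5 of the 33 genes were called higher (psbM, psbI, ycf4, petA and petD), 1 lower (psbZ) and 27 not called. Both directions together make 18.2%, near the background of 16.8%. By direction, 15.2% were called higher, beside 8.22% of all tested probe sets, and 1 of 33 lower, beside 8.55%. With quantile normalization, which gives all arrays the same distribution of signals, 1 was higher (psbM) and 4 lower (psbZ, ycf3, atpF and atpI), or 5 of 33 beside a background of 17.1% (9.4% higher and 7.7% lower). The genes called under both scalings were psbM and psbZ. The median difference over the 33 genes was 0.02 as deposited, -0.05 with quantile normalization and -0.02 with all arrays set to a common median. Over all tested probe sets the median was -0.02 as deposited, -0.01 with quantile normalization and -0.055 with a common median. The sign of the group's median therefore did not hold across scalings. Its place beside all tested probe sets was above as deposited and with a common median, and below with quantile normalization. The labels did not overlap for 10 of the 33 genes (30.3%, beside 23.6% of all tested probe sets), with the fbn5-1 arrays above for 9 (background 11.7%) and below for 1 (background 11.9%). With quantile normalization they were above for 3 and below for 7, beside 24.5% of all tested probe sets that did not overlap (13.2% above and 11.3% below).

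**Figure D1:**
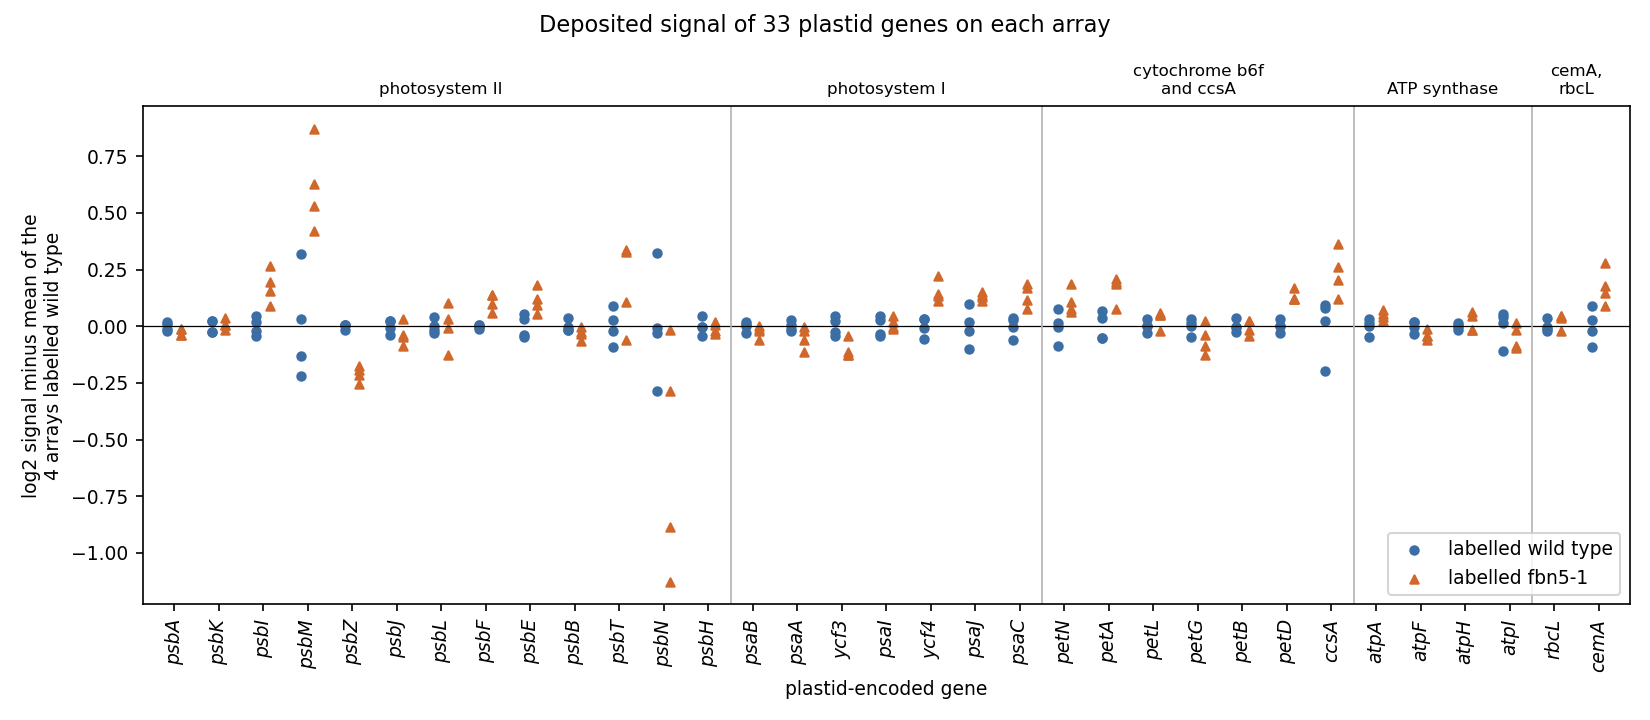
Deposited log2 signal of the 33 genes on each of the 8 arrays, given as the distance from the mean of the 4 wild type arrays; genes are grouped by complex and ordered along the plastid genome within it. Most fbn5-1 points lie within 0.2 of 0, apart from psbM (difference 0.61), psbN (-0.58), ccsA (0.24) and psbZ (-0.21), with some arrays of psbI, psbT, ycf4, petA and cemA above it.

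The scalings shifted most of the 33 genes the same way. Quantile normalization lowered the difference of 30 of the 33 genes, with a median shift of -0.08 and a lowest of -0.12, and it turned the sign of 6. The exceptions were psbA, psbM and psbN, which moved up by at most 0.02. Before it, the 90th percentile of signal was 6.75 to 6.79 on the wild type arrays and 6.65 to 6.72 on the fbn5-1 arrays, while the array median was 3.42 to 3.45 and 3.46 to 3.49. The distributions of the arrays thus differed by label, low at the median and high at the 90th percentile for wild type. The mean over the 33 genes was 11.45 to 11.55 on the wild type arrays and 11.49 to 11.58 on the fbn5-1 arrays as deposited, and 11.50 to 11.56 and 11.48 to 11.54 with quantile normalization. The groups overlapped on both scales. Among the wild type arrays, array 3 had the lowest value for 22 of the 33 genes and array 4 the highest for 13.

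psbM, which encodes a small photosystem II subunit known from cyanobacterial structures to lie at the interface of the dimer, had the largest positive difference of the 33 on both scales. Its log2 signal was 9.43, 9.27, 9.18 and 9.72 on the wild type arrays and 9.93, 10.27, 10.03 and 9.82 on the fbn5-1 arrays. Every fbn5-1 array lay above every wild type array, the nearest pair being wild type array 4 and fbn5-1 array 4. The difference was 0.61 (SE 0.13, limma adjusted p = 0.0154), a ratio of 1.53 with a 95% confidence interval of 1.25 to 1.88. With quantile normalization it was 0.64 (SE 0.12, limma adjusted p = 0.0109). The call held without each array in turn, with differences from 0.53 to 0.72, the highest of them without wild type array 4.

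psbZ, a small subunit of photosystem II whose loss in tobacco disturbs the attachment of the light-harvesting antenna, was the only gene called lower on the deposited scale. Its signal was 11.90, 11.90, 11.88 and 11.90 on the wild type arrays and 11.64, 11.72, 11.68 and 11.70 on the fbn5-1 arrays. All fbn5-1 arrays lay below all wild type arrays, which were within 0.02 of each other. The difference was -0.21 (SE 0.03, limma adjusted p = 0.00513), a ratio of 0.865, and -0.27 with quantile normalization (SE 0.04, limma adjusted p = 0.00364). It passed the test without each array in turn; without an intensity trend in the variance model it did not (limma adjusted p = 0.0795).

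psbN gave the largest negative difference and did not pass the test. Its product is no subunit of photosystem II but is needed for its assembly in tobacco, and the gene is read from the strand opposite to its neighbours psbT and psbH. The signal was 10.15, 10.13, 9.87 and 10.48 on the wild type arrays and 9.27, 10.14, 9.87 and 9.03 on the fbn5-1 arrays. Arrays 1 and 4 with the fbn5-1 label were low, and arrays 2 and 3 lay among the wild type values. The difference of -0.58 had an SE of 0.24 (limma adjusted p = 0.124) and a 95% confidence interval from -1.11 to -0.05; with quantile normalization it was -0.57 (limma adjusted p = 0.112). Whether the probe sets tell the strands apart is not given in the sources used here, so its signal and that of its neighbours may not be separate.

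psbI, for another small subunit of photosystem II, was called as deposited but not with quantile normalization. Its signal was 11.65, 11.58, 11.56 and 11.62 on the wild type arrays and 11.87, 11.80, 11.76 and 11.69 on the fbn5-1 arrays, without overlap. The difference was 0.18 (SE 0.05, limma adjusted p = 0.0312), a ratio of 1.13, and 0.11 with quantile normalization (SE 0.05, limma adjusted p = 0.201), where the groups overlapped. Its neighbour psbK, read in the same cluster, differed by 0.01 (95% confidence interval -0.07 to 0.08), and by -0.06 with quantile normalization (95% confidence interval -0.14 to 0.03).

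The genes psbA, psbB, psbE and psbF of the photosystem II core were not called on either scale. psbA encodes the reaction centre protein with the fastest turnover in light. Its signals were 12.38, 12.41, 12.42 and 12.39 on the wild type arrays and 12.39, 12.36, 12.39 and 12.36 on the fbn5-1 arrays. The difference was -0.03 (95% confidence interval -0.09 to 0.04), and -0.02 with quantile normalization. That scaling sets values by rank and gave psbA 12.3875 on every array but fbn5-1 array 2 (12.315). The -0.02 is therefore largely fixed by rank and adds little to the deposited value. psbB, for an inner antenna protein of the core, differed by -0.03 as deposited (95% confidence interval -0.10 to 0.04), with overlap. With quantile normalization psbB was at -0.11 (95% confidence interval -0.19 to -0.03, limma adjusted p = 0.0579), and its fbn5-1 arrays lay below all wild type arrays. psbE and psbF, for the cytochrome of the reaction centre, had differences of 0.11 each (limma adjusted p = 0.0958 and 0.0538), with overlap for psbE and none for psbF, and psbL and psbJ of the same cluster had 0.00 and -0.04. The 4 genes of this cluster thus had differences on both sides of 0, and none passed the test. With quantile normalization their differences were 0.04, 0.05, -0.06 and -0.11, and none was called. Of the other small subunits, psbT had 0.18 (SE 0.09, limma adjusted p = 0.221) as deposited and 0.17 with quantile normalization. psbH had -0.01 (SE 0.04) as deposited and -0.11 with quantile normalization (limma adjusted p = 0.0785), where its fbn5-1 arrays lay below all wild type arrays.

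**Figure D2:**
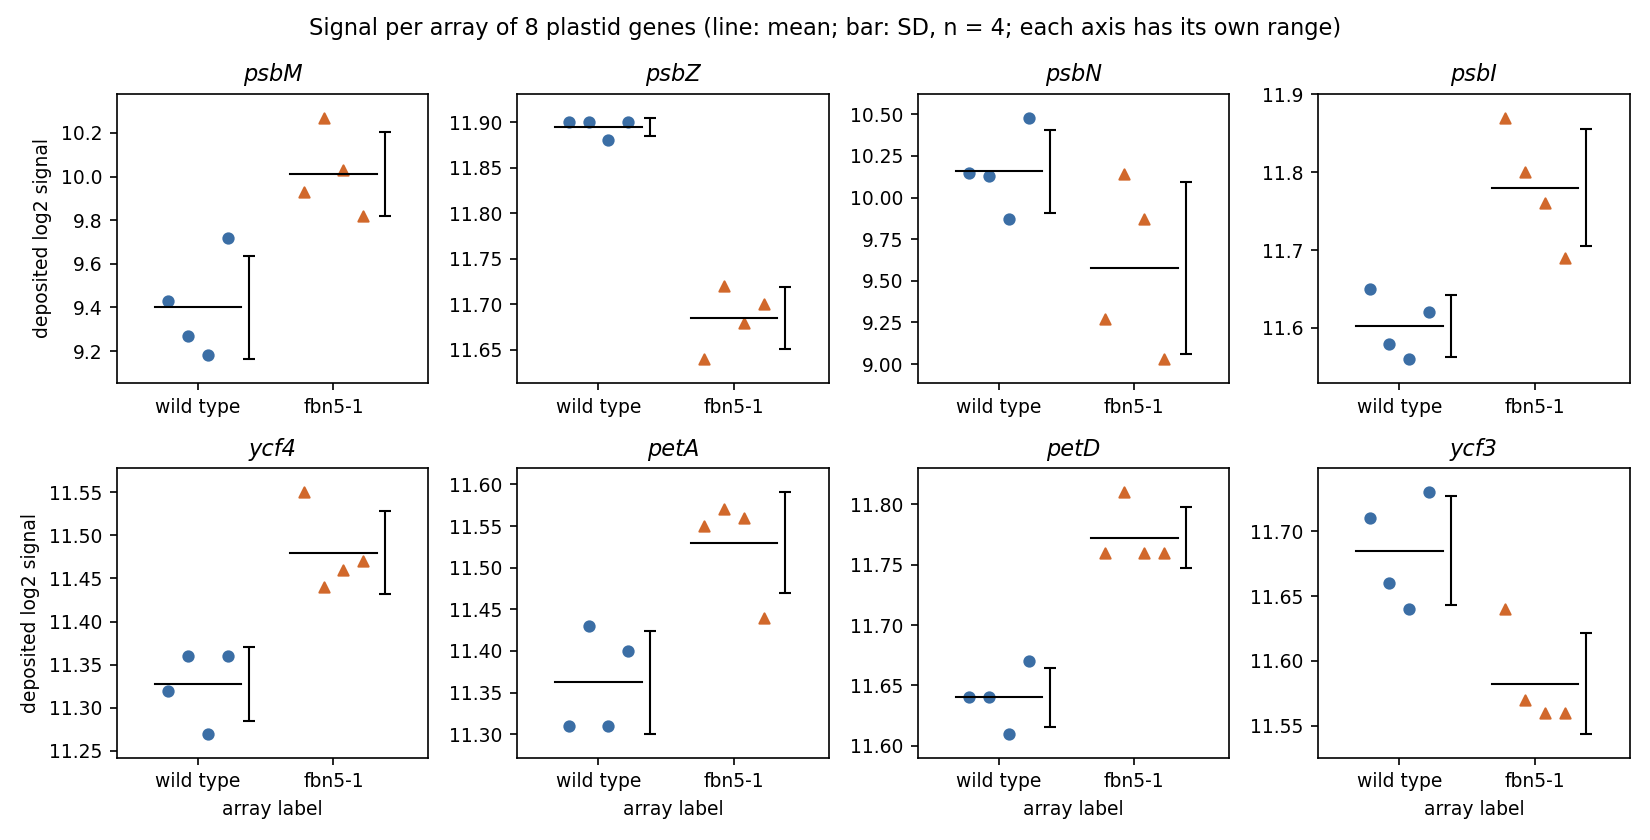
Deposited log2 signal of 8 genes on each array by label, with the mean as a line and the SD (n = 4) as a bar; each panel has its own axis range, which does not start at 0. psbM, psbI, ycf4, petA and petD do not overlap and are higher with the fbn5-1 label, psbZ does not overlap and is lower, and psbN and ycf3 overlap.

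Of 13 photosystem II genes, 2 were called higher, 1 lower and 10 not called as deposited (23.1%, beside 16.8% of all tested probe sets), with a median difference of 0.00 and a range from -0.58 to 0.61. With quantile normalization 1 was higher and 1 lower (15.4%, beside 17.1%), and the median was -0.06. The confidence interval of the difference lay wholly within 0.2 of 0 for 7 of the 13 as deposited.

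Photosystem I showed 1 call among 7 genes on each scale (14.3%, beside 16.8% and 17.1% of all tested probe sets), and it was not the same gene. The reaction centre genes psaA and psaB, which lie side by side, differed by -0.05 (95% confidence interval -0.13 to 0.03) and -0.02 (95% confidence interval -0.09 to 0.05). With quantile normalization they had -0.11 and -0.10, not called (limma adjusted p = 0.165 and 0.0607). psaC, which binds the terminal iron-sulfur clusters, was at 11.37, 11.46, 11.43 and 11.47 on the wild type arrays and at 11.60, 11.55, 11.62 and 11.51 on the fbn5-1 arrays. These did not overlap, but the difference of 0.14 (SE 0.04) missed the threshold (limma adjusted p = 0.0528), and with quantile normalization it was 0.03 and the groups overlapped. The small subunits psaI and psaJ had 0.01 and 0.13 as deposited, and -0.08 and 0.02 with quantile normalization, not called on either scale.

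The assembly factors of photosystem I had differences of opposite sign. ycf4 had signals of 11.32, 11.36, 11.27 and 11.36 on the wild type arrays and 11.55, 11.44, 11.46 and 11.47 on the fbn5-1 arrays, and rose by 0.15 as deposited (SE 0.04, limma adjusted p = 0.0365) but not with quantile normalization (0.05, limma adjusted p = 0.35). ycf3 had signals of 11.71, 11.66, 11.64 and 11.73 on the wild type arrays and 11.64, 11.57, 11.56 and 11.56 on the fbn5-1 arrays, where array 1 equalled the lowest wild type value. Its difference of -0.10 (SE 0.04) was not called as deposited (limma adjusted p = 0.101). It was called at -0.20 with quantile normalization (SE 0.04, limma adjusted p = 0.0114) and with a common array median. Over the 7 genes the median was 0.01 as deposited and -0.08 with quantile normalization.

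In the cytochrome b6f complex the 2 calls were for genes of large subunits. petA, for cytochrome f, had signals of 11.31, 11.43, 11.31 and 11.40 on the wild type arrays and 11.55, 11.57, 11.56 and 11.44 on the fbn5-1 arrays, with fbn5-1 array 4 just above the highest wild type array. The difference was 0.17 (SE 0.05, limma adjusted p = 0.0419), and 0.06 with quantile normalization (limma adjusted p = 0.301). petD, for subunit IV, had 11.64, 11.64, 11.61 and 11.67 on the wild type arrays and 11.76, 11.81, 11.76 and 11.76 on the fbn5-1 arrays, a difference of 0.13 (SE 0.03, limma adjusted p = 0.0285) without overlap. With quantile normalization petD had 0.05 (limma adjusted p = 0.348), still without overlap. petB, for cytochrome b6 and next to petD in the same cluster, differed by 0.00 (95% confidence interval -0.08 to 0.07), and by -0.08 with quantile normalization (95% confidence interval -0.17 to 0.00).

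The small subunit genes petN, petL and petG had differences of 0.11, 0.04 and -0.06, and with quantile normalization 0.00, -0.06 and -0.13. None was called on either scale. petG, the lowest of the complex, was at 11.90, 11.84, 11.89 and 11.92 on the wild type arrays and 11.91, 11.76, 11.80 and 11.85 on the fbn5-1 arrays, with overlap. ccsA, whose product attaches heme to cytochromes of the c type such as cytochrome f, was at 9.95, 10.01, 9.73 and 10.02 on the wild type arrays and 10.29, 10.13, 10.19 and 10.05 on the fbn5-1 arrays. Its groups did not overlap, and its difference of 0.24 was the same under both scalings (SE 0.08 in each), but it missed the threshold (limma adjusted p = 0.0712 as deposited and 0.0767 with quantile normalization). Over these 7 genes, ccsA included, the median was 0.11 as deposited and 0.00 with quantile normalization, with 2 called higher (28.6%, beside 8.22% of all tested probe sets) and 0 called higher. With 7 genes such a share turns on single calls.

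The 4 ATP synthase genes, read as 1 cluster, were not called as deposited. atpA, for the alpha subunit of the catalytic head, differed by 0.05, atpH, for the membrane ring, by 0.02, atpF, for a stalk subunit, by -0.04, and atpI, for the membrane subunit beside the ring, by -0.05; the confidence intervals of all 4 lay within 0.2 of 0. atpA had signals of 11.86, 11.88, 11.80 and 11.85 on the wild type arrays and 11.90, 11.92, 11.89 and 11.87 on the fbn5-1 arrays, which overlapped only at wild type array 2. With quantile normalization all 4 were negative, and 2 were called lower. atpA and atpH, not called, were at -0.03 and -0.05 (limma adjusted p = 0.657 and 0.361). For atpH that scaling gave the same value, set by rank, on all 4 wild type arrays and on fbn5-1 arrays 3 and 4 (12.315). atpF had quantile-normalized signals of 11.67, 11.71, 11.69 and 11.66 on the wild type arrays and 11.55, 11.52, 11.58 and 11.56 on the fbn5-1 arrays (difference -0.13, SE 0.03, limma adjusted p = 0.0302), without overlap. atpI had 11.79, 11.79, 11.64 and 11.70 against 11.65, 11.55, 11.52 and 11.55 (difference -0.16, SE 0.05, limma adjusted p = 0.0499), where fbn5-1 array 1 lay above wild type array 3. Their deposited signals were 11.64, 11.66, 11.61 and 11.66 against 11.60, 11.60, 11.63 and 11.58 for atpF, and 11.71, 11.72, 11.56 and 11.68 against 11.68, 11.65, 11.58 and 11.57 for atpI.

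rbcL, for the large subunit of the carbon-fixing enzyme Rubisco, had signals of 12.06, 12.07, 12.11 and 12.05 on the wild type arrays and 12.11, 12.05, 12.12 and 12.12 on the fbn5-1 arrays, which overlapped. Its difference of 0.03 (95% confidence interval -0.05 to 0.10) became -0.03 with quantile normalization and -0.01 with a common array median. cemA, for a protein of the inner envelope membrane, had 10.94, 10.99, 10.87 and 11.05 on the wild type arrays and 11.24, 11.11, 11.14 and 11.05 on the fbn5-1 arrays, and its difference of 0.17 (SE 0.06, limma adjusted p = 0.0658) was not called, nor was the 0.08 with quantile normalization (limma adjusted p = 0.341). cemA lies in a cluster with psaI, ycf4 and petA, for which the differences were 0.01, 0.15 and 0.17. All 4 were at or above 0 as deposited, and psaI turned to -0.08 with quantile normalization.

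**Figure D3:**
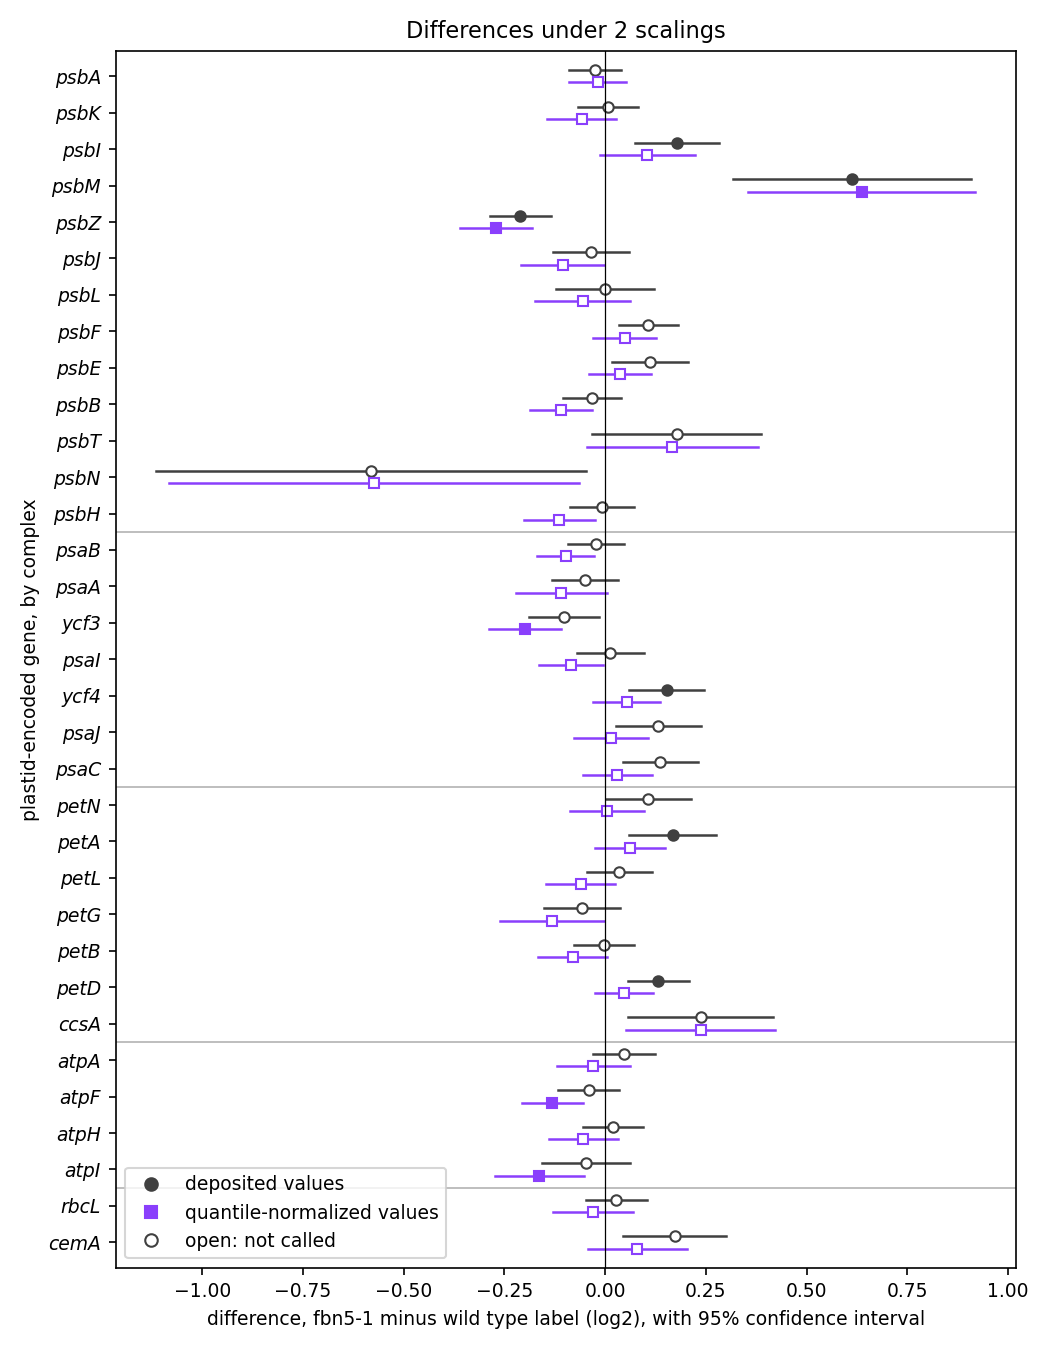
Difference between the labels (fbn5-1 minus wild type, log2) for each gene with its 95% confidence interval from limma, for deposited values (circles) and quantile-normalized values (squares); filled symbols were called at an adjusted p under 0.05. psbM and psbZ are filled under both scalings, and 30 of the 33 squares lie to the left of their circles.

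The relation between difference and mean signal was weak over all 33 genes, but this depended on psbN. The deposited difference had a Pearson r of -0.20 with the mean signal over the 33 genes (Spearman rho -0.35), and with quantile normalization -0.30 (Spearman rho -0.28). psbM and psbN, both among the genes with the lowest signal, had differences of opposite sign. Over the 32 genes without psbN, the deposited Pearson r was -0.68 (Spearman rho -0.47). Over the 31 without psbM and psbN, it was -0.49 as deposited and -0.53 with quantile normalization (Spearman rho -0.42 and -0.33). These coefficients describe genes that share the same arrays and often the same precursor RNA, so no p is given. The 30 other plastid genes encode ribosomal proteins, RNA polymerase, NADH dehydrogenase-like subunits and a few others. Their Pearson r was -0.61 as deposited and -0.73 with quantile normalization. Whether the relation differs between the 30 and the 33 genes was not tested.

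These 30 other genes are the nearest comparison, and they were measured on the same arrays, but their signals were lower. The median of their wild type means was 10.91, beside 11.67 for the 33 genes. Of them 17 were called higher and 0 lower as deposited (56.7%, median 0.20), and 13 higher and 1 lower with quantile normalization (median 0.15). Over all tested probe sets 8.22% were called higher as deposited and 9.4% with quantile normalization. The fbn5-1 arrays lay wholly above the wild type arrays for 16 of the 30 as deposited (background 11.7%) and wholly below for 0. With quantile normalization they lay wholly above for 15 (background 13.2%) and wholly below for 3 (background 11.3%). Within the 33, the 17 dimmer genes had a median difference of 0.13 as deposited and the 16 brighter genes 0.00. With quantile normalization these medians were 0.015 and -0.07. The difference between the 33 genes and these 30 was not tested, nor was the part of signal level in it.

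**Figure D4:**
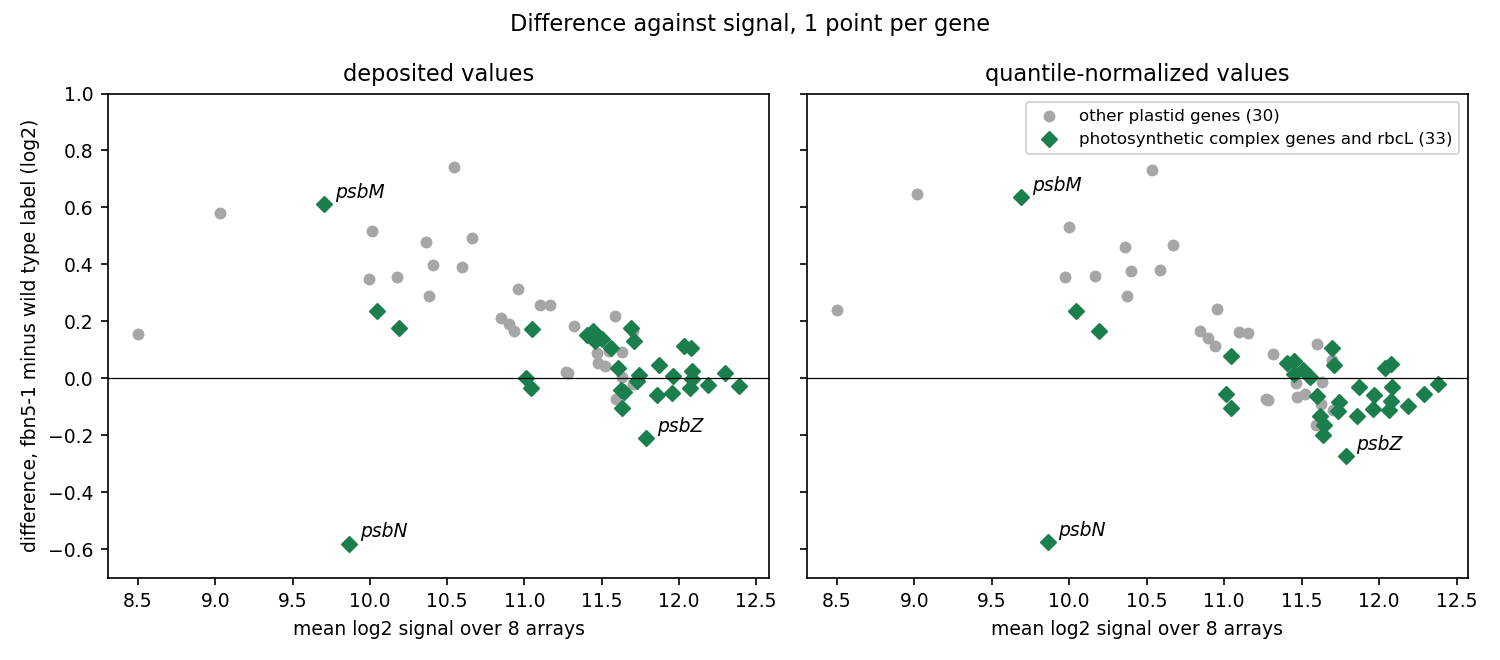
Difference between the labels against the mean log2 signal over the 8 arrays, 1 point per plastid gene, as deposited (left) and with quantile normalization (right); diamonds are the 33 photosynthetic genes and circles the 30 other plastid genes. Most diamonds lie near 0 above a signal of 11, psbM stands at 0.61 and psbN at -0.58 as deposited.

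The nuclear genes for the same complexes were sparsely covered, since few of the listed names matched a probe set that names 1 gene. Of the 28583 probe sets, 11079 carried no gene symbol, so a gene without a match may still be on the array. Among 9 tested nuclear subunits, antenna proteins and partners of the electron transport chain and Rubisco, 0 were higher, 1 lower and 8 not called with limma as deposited. Over all tested probe sets 8.22% were higher and 8.55% lower. The median difference of the 9 was -0.17, with 8 below 0 and 1 above. Over all tested probe sets 48.2% were above 0, and the direction of the list was not tested. The 1 lower was PSAE-1, a stromal photosystem I subunit, at 10.82, 10.84, 10.77 and 10.75 on the wild type arrays and 10.66, 10.54, 10.59 and 10.69 on the fbn5-1 arrays (difference -0.18, SE 0.05, limma adjusted p = 0.0392). With quantile normalization PSBW, a nuclear photosystem II subunit, was also called lower (-0.24, limma adjusted p = 0.0478), and the median was -0.09. ATPC1, for the gamma subunit of the ATP synthase, differed by -0.02 as deposited and 0.07 with quantile normalization, and was not called on either scale.

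Of 10 tested nuclear factors that process plastid RNA or assemble the complexes, 2 were called higher, 0 lower and 8 not called, a share near the 16.8% of all tested probe sets. All 10 differences were above 0, as were 48.2% over all tested probe sets, and the direction of the list was not tested. CAF1, needed for splicing of plastid introns, was at 4.93, 4.84, 4.76 and 5.05 on the wild type arrays and 5.47, 5.32, 5.51 and 5.34 on the fbn5-1 arrays (difference 0.52, SE 0.10, limma adjusted p = 0.0102). PAM68, an assembly factor of photosystem II, was at 5.33, 5.24, 5.32 and 5.06 against 5.58, 5.73, 5.89 and 5.89 (difference 0.54, SE 0.11, limma adjusted p = 0.0124). Both were called with quantile normalization as well. The median of the 10 was 0.29 as deposited and 0.28 with quantile normalization, and HCF101, LPA1, LPA2, LPA19, LPA66, OTP84, CCB3 and PSB27 were not called. None of the 37 listed names of plastid sigma factors and polymerase-associated proteins had a probe set that could be named.

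**Figure D5:**
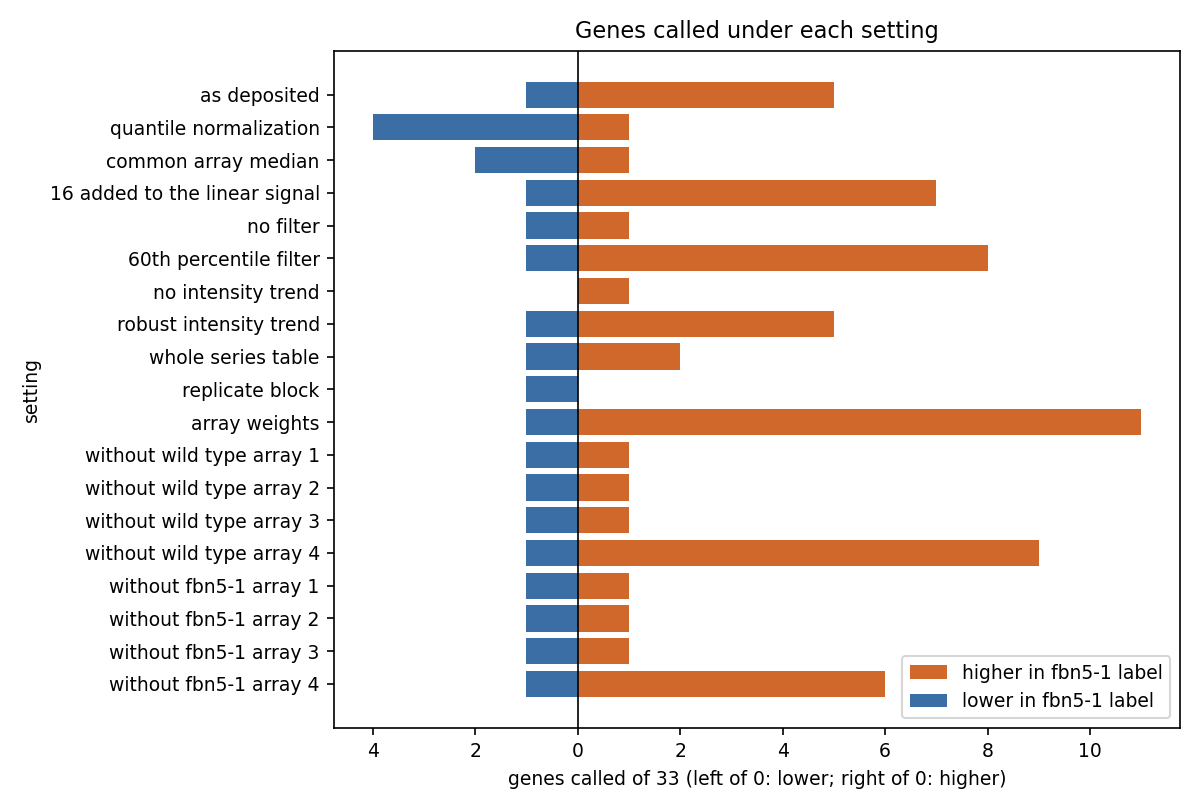
Number of the 33 genes called higher (right of 0) and lower (left of 0) in the arrays labelled fbn5-1 under the deposited values and 18 alternative settings. The count of higher genes runs from 0 with a replicate block to 11 with array weights, and the count of lower genes from 0 without an intensity trend to 4 with quantile normalization.

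The number of calls depended on single arrays, while psbM and psbZ did not. Without wild type array 4, 9 genes were called higher and 1 lower, and without fbn5-1 array 4, 6 and 1. Without any one of the other 6 arrays, psbM was the 1 gene called higher and psbZ the 1 called lower. The calls of psbI, ycf4, petA and petD thus rested on all 8 arrays being used or on wild type array 4 or, ycf4 excepted, fbn5-1 array 4 being the one left out; the highest adjusted p on leaving out an array was 0.0833 for psbI, 0.0848 for ycf4, 0.107 for petA and 0.0759 for petD.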

How the data were processed

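Per the labels' protocols, total RNA was extracted with Trizol and labelled with biotin by the Affymetrix protocol. Each deposited value, 1 per probe set and array, was read as a log2 signal because of its range, since the base is not stated. The submitters' processing notes name MAS5, and no source used here gives the scaling. The series matrix (28583 probe sets) was used, identical to the series table of 38408 where they overlap. Probe sets were named through GEO's platform annotation and RefSeq gene numbers (TAIR10.1), the latter also for gene order.

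The deposited scaling was kept, and the difference of every member gene is also given after quantile normalization; signals per array are deposited values unless said otherwise. Probe sets with a mean above the 40th percentile (log2 2.79) were tested with limma 3.58.1 in R 4.3.3 (lmFit, eBayes with an intensity trend), two-sided, as fbn5-1 minus wild type label. P-values were adjusted by the Benjamini-Hochberg method across the 17147 probe sets tested, and all 33 genes passed the filter. The number of arrays limits precision. The code was tested on simulated data. Each member called under either scaling was named, with the highest and lowest of each complex; nuclear genes were named where called, and all other genes were chosen after their values were seen. The members and lists were chosen with earlier results of these data known. Gene functions are background and were not read from the files.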

Additional observations from a re-analysis of the deposited data

Results flagged for a closer look

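Among 68 groups of 4 arrays (33 plastid genes and FBN5, each label), 7 held 1 array far from the other 3 by Dixon's criterion for 4 values; chance flags about 1 in 20 groups. FBN5 was high on wild type array 4, at 5.15. petA was low on fbn5-1 array 4, at 11.44. petD was high on fbn5-1 array 2, at 11.81, and rbcL low on the same array, at 12.05. On fbn5-1 array 1, ycf3 was high at 11.64 and petL low at 11.57. psbZ was low on wild type array 3, at 11.88, beside 11.90 on the other 3, a gap of the size of the second decimal to which values are given.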

How the results depend on the processing

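Of 18 alternatives, psbM kept its call in 17 (lost with a replicate block, adjusted p = 0.0537) and psbZ in 17 (lost without an intensity trend). The 5 higher members became 1 with quantile normalization (also without wild type array 4, an alternative added after seeing the data), with a common array median, without a filter and without an intensity trend, 2 with the whole series table, 8 with a 60th percentile filter, 11 with array weights, 0 with the replicate block, and 1 to 9 on leaving out an array. The 1 lower member became 4 with quantile normalization (with or without wild type array 4), 2 with a common array median and 0 without a trend, and stayed 1 on leaving out any array. The median difference of 0.02 became -0.054 with quantile normalization (with or without wild type array 4) and -0.02 with a common array median. atpA turned to -0.029 with quantile normalization (-0.051 when wild type array 4 was also left out), and rbcL to -0.0298 (-0.0326) and, with a common array median, to -0.0125. FBN5 became called with array weights (1.14, limma adjusted p = 0.00396) and without wild type array 4 (1.2, and 1.19 with quantile normalization); on leaving out each array its difference ran from 0.603 to 1.2. The 2876 probe sets called array-wide became 1731 with the replicate block and 4450 with array weights, and 1736 to 3854 on leaving out an array. The causes were not tested. Same-numbered arrays did not deviate together (correlations 0.16, -0.19, -0.04 and 0.00), so the replicate block shares a number alone. The mean over several probe sets per gene was not run, because each of the 33 has 1. With 4 arrays per label, exact permutation tests cannot go below p = 0.0286.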

Other observations

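The 2 probe sets that each name 2 plastid genes of the same complexes were left out of the counts above, and their values are given here. The probe set shared by psbC and psbD, for an inner antenna protein and a reaction centre protein of photosystem II, had log2 signals of 11.96, 11.98, 11.88 and 11.97 on the wild type arrays and 11.99, 12.04, 12.00 and 11.93 on the fbn5-1 arrays. Its difference was 0.04 (SE 0.04, limma adjusted p = 0.495) as deposited and -0.03 with quantile normalization. The probe set shared by atpB and atpE, for the beta and epsilon subunits of the ATP synthase head, had 11.45, 11.58, 11.44 and 11.53 against 11.50, 11.50, 11.53 and 11.52, a difference of 0.01 (SE 0.04, limma adjusted p = 0.868) as deposited and -0.10 with quantile normalization (limma adjusted p = 0.137). Neither was called on either scale.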
